A study of Mus musculus with 1 sample.

Results

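DNA replication genes were examined in 1 RNA sequencing library of mouse pancreas fibroblasts. The members are 41 genes chosen by name for their part in copying DNA, and all 41 had a row in the deposited table of 23386 genes. They fall into 5 roles: origin licensing (9 genes), the replicative helicase (12), the polymerases (9), the clamp with its loader and the enzymes that finish the lagging strand (8), and nucleotide supply (3). The fibroblasts, from pancreas labelled normal, were grown on in culture before RNA was taken up in TRIzol and sequenced by SOLiD protocols. The labels give a mixed background (C57BL/6 and BALB/c) and a genotype that includes tf1acre- and Tgfrb2flox/flox, that is, no Cre and floxed alleles of a gene written Tgfrb2. The series set such cells against cancer-associated fibroblasts of pancreas tumours, but only this library was analysed here, so no difference between the conditions could be tested. The column of values carries a CAF code, which goes against the label, and the library is therefore called the library labelled normal fibroblast.

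A replication origin is first bound by the origin recognition complex (ORC), onto which Cdc6 and Cdt1 load the ring-shaped MCM2-7 complex. At the start of S phase Cdc45 and the GINS complex join MCM2-7 to form the active helicase, polymerase alpha-primase lays down primers, and polymerases epsilon and delta extend them while held to DNA by the PCNA clamp. Many of these genes are targets of the E2F transcription factors, are low in resting fibroblasts and rise when the cells are stimulated to divide.

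The table held 52494688 reads recovered from the deposited values, so that 1 read is 0.0190 CPM (reads per 1000000 reads in the table). With no replicate, every interval given is an exact 95% Poisson or binomial interval, covers counting error alone, and the spread between cultures is unknown. The 8 fibroblast markers examined had 366 to 3021 CPM. Markers of other cells were lower: 5 epithelial genes had 1.16 (Epcam) to 11.8 CPM, 2 endothelial genes 0.248 and 0.324 CPM, and 2 leukocyte genes 0.495 (Ptprc) and 4.48 CPM. Of 3 acinar genes, the enzyme genes Cpa1 and Cela1 reached 23.5 and 36.8 CPM and the factor gene Ptf1a 0.114 CPM. Divided by exon length in units of 1000 bases (RPKM), the fibroblast markers had 36.5 to 603. Cela1 (16.0 RPKM) and Cpa1 (13.4) lay above the median member (10.2). The epithelial genes Krt18 (8.22) and Krt19 (5.98) lay above the median of coding genes with at least 10 reads (4.93). The remaining markers of other cells lay below 4.93 RPKM. Whether cells of other types contributed to the values below was not tested.

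Promoters of the members were searched for the letters of E2F sites. RefSeq windows on GRCm38.p6, from 250 bases before to 50 after a start site, were found for 33 of the 41 members, some with more than 1 start site. Gins1, Gins2, Gins4, Gmnn, Mcm4, Pole, Prim2 and Rfc2 were not matched. The windows were searched on both strands for 4 E2F 8-mers, TTTCGCGC, TTTGGCGC, TTTCCCGC and TTTGCCGC. Matches may overlap each other. Of the 33 members, 15 (45.5%) held at least 1 match, whereas 3.42% of 16236 protein-coding genes with a window did, and 4.59% of those with at least 10 reads in this library. A match is a description of the letters and does not show that a factor binds. For each of the 15 genes the match nearest the start site is printed, because it is the sequence feature that these members share. Each is a stretch of 30 bases, 5′ to 3′ on the gene's strand, with every matching 8-mer in capitals; those that read GCG first are on the other strand.

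Orc1 (chr4:108579416-108579445, plus strand): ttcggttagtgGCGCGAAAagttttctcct
Orc3 (chr4:34614965-34614994, minus strand): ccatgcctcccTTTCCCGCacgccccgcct
Cdc6 (chr11:98908002-98908031, plus strand): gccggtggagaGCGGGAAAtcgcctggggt
Cdt1 (chr8:122568035-122568064, plus strand): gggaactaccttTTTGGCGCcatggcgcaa
Mcm3 (chr1:20820275-20820304, minus strand): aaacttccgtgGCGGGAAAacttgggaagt
Mcm5 (chr8:75109349-75109378, plus strand): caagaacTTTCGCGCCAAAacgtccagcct
Mcm6 (chr1:128359734-128359763, minus strand): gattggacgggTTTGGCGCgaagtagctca
Mcm7 (chr5:138171849-138171878, minus strand): gggtgacgacgTTTCGCGCcaatttcggtt
Gins3 (chr8:95633507-95633536, plus strand): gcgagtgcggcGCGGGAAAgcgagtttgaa
Pola1 (chrX:93632275-93632304, minus strand): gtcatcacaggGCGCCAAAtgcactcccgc
Pold1 (chr7:44548766-44548795, minus strand): cacggcggcgtatcttgtgGCGGGAAAagc
Pold3 (chr7:100121467-100121496, minus strand): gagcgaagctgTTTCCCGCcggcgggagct
Pole2 (chr12:69228162-69228191, minus strand): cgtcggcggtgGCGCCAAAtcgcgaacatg
Rfc3 (chr5:151651190-151651219, minus strand): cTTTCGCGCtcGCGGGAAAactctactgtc
Lig1 (chr7:13278841-13278870, plus strand): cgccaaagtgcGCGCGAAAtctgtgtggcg

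The matches were spread over 4 of the 5 roles. They were found in 4 of 8 licensing genes with a window, 5 of 8 helicase genes, 4 of 7 polymerase genes and 2 of 7 clamp genes, and in 0 of the 3 nucleotide supply genes Rrm1, Rrm2 and Tyms. There were 21 matches in all, 9 on the gene's strand and 12 on the other, from 165 bases upstream of the start site to 39 bases after it. Of these, 12 lay upstream and 9 in the first transcribed bases, as counted from the start site of the window. The upstream matches of Cdc6, Orc1, Mcm7 and Pola1 lay within the annotated span of their gene, which begins further upstream. TTTCCCGC was found in 8 members, TTTCGCGC and TTTGGCGC in 6 each, and TTTGCCGC in 0. The helicase genes Mcm3, Mcm5, Mcm6 and Mcm7 and the loader gene Rfc3 held more than 1 match.

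In Mcm5 and in Mcm6 2 of the 8-mers overlap head to head, so that the motif reads from both strands. The 250 bases upstream of their start sites are given with the 8-mers and each CCAAT box, the element bound by NF-Y (on either strand, so also as ATTGG), in capitals. Those of Rrm1, the most abundant member, are given beside them because they hold CCAAT boxes and none of the 8-mers.

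Mcm5 (chr8:75109259-75109508, plus strand): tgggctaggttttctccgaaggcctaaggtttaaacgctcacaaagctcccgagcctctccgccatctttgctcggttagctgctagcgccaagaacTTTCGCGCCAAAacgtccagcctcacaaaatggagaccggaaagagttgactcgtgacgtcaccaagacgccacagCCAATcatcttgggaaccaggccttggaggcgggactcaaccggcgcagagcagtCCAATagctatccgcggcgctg
Mcm6 (chr1:128359706-128359955, minus strand): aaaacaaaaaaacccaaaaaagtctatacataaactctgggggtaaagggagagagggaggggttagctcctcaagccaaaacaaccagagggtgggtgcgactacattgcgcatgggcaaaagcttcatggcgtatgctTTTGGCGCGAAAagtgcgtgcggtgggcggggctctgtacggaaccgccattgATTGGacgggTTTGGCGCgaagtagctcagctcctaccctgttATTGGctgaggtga
Rrm1 (chr7:102441445-102441694, plus strand): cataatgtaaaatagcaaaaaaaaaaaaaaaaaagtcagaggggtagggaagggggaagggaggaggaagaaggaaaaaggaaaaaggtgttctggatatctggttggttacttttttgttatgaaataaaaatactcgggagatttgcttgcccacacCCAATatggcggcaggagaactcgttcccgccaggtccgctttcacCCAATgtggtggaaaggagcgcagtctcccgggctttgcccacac

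Other elements were searched in the same windows. CCAAT was found in 20 of the 33 members (60.6%), in 42.6% of coding genes and in 42.9% of those with at least 10 reads. The GC box letters GGGCGG, read by SP1 family factors, were in 25 members (75.8%), against 51.6% of all coding genes and 67.2% of those with at least 10 reads. TTTGAA, the letters of the CHR element of genes of mitosis, was in 5 members (15.2%). It was in 17.6% of coding genes and 14.5% of those with at least 10 reads. The median GC content was 60% for the member windows, 57% for those of all coding genes and 60.3% for those of genes with at least 10 reads. Levels in this library are given here as reads per 1000 bases of exon per 1000000 reads (RPKM). The 15 members with an 8-mer had a median of 7.21 RPKM and the 18 without one 13.0 RPKM. With the exons of only the RefSeq transcripts listed for each gene, the gap was smaller, 16.7 against 20.6. Among the helicase genes the order was the other way, with 31.3 RPKM for the 5 with and 10.2 RPKM for the 3 without. The 5 were Mcm3, Mcm5, Mcm6, Mcm7 and Gins3, and the 3 were Mcm2, Mcm10 and Cdc45.

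**Figure D1:**
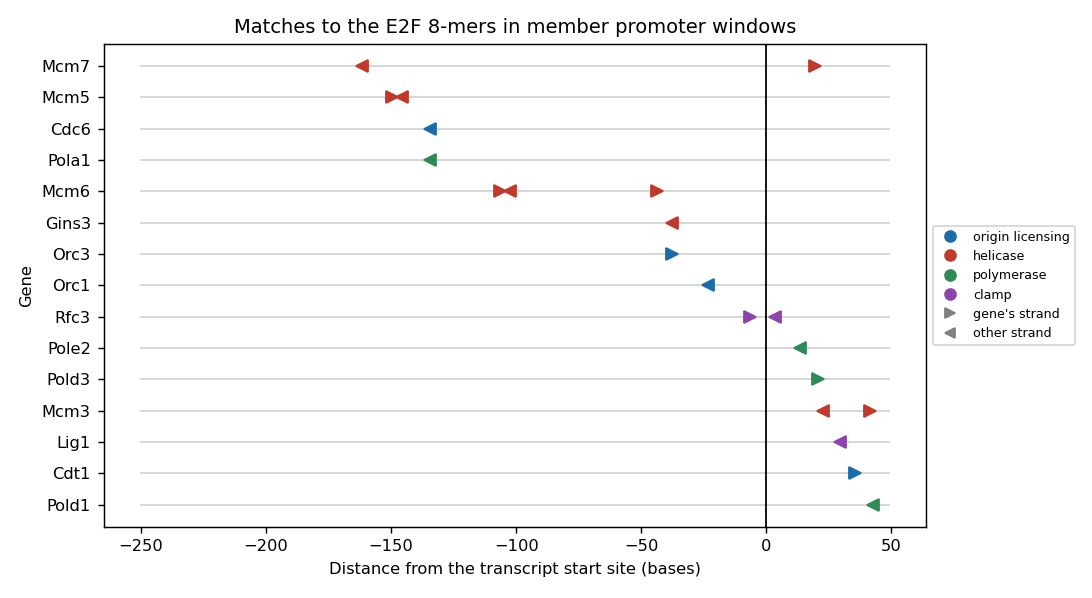
Places of the 21 matches to the E2F 8-mers in the promoter windows of 15 members. The x axis is the distance from the transcript start site in bases, each row is 1 gene, the grey line is the window searched, arrows point along the strand that carries the 8-mer, and colours give the role. Matches run from 165 bases upstream to 39 bases after the start, 12 of them upstream.

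A second shared feature, looked for after overlapping genes had been seen in the annotation, was a head-to-head neighbour. In GENCODE M21, 10 of the 41 members (24.4%) start within 1000 bases of a protein-coding gene that runs the other way, against 11.1% of 20325 coding genes of the table. The 11.1% counts genes with fewer than 10 reads too, and the share among those with at least 10 reads is not given. These members were Orc1, Orc3, Orc4, Orc6, Mcm4, Mcm7, Cdc45, Gins1, Pole and Fen1. The starts of Orc3 and Rars2, a mitochondrial arginyl-tRNA synthetase gene, are 13 bases apart, and those of Mcm4 and Prkdc, which encodes the catalytic subunit of the DNA repair kinase DNA-PK, 466 bases apart. Levels of partners could lie far apart or close: Mcm4 had 40.9 RPKM and Prkdc 4.63, whereas Orc1 had 5.46 RPKM and its partner Prpf38a 5.08.

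All 41 members had at least 10 reads, as did 67.6% of protein-coding genes, and the lowest member, Gins3, had 423 reads. Together they took 159215 reads, or 0.303% of the library, and Rrm1 alone supplied 24.0% of that sum. Levels were compared between genes as RPKM, the CPM divided by the length in 1000 bases of all exons annotated for the gene. Because some annotated exons belong to rare transcripts, the same was computed with the exons of the RefSeq transcripts listed in the row of the gene, called the listed-transcript RPKM. The lengths differed by up to 3.01-fold (median 1.5-fold), so a difference between members of that order depends on the length used. The median member had 10.2 RPKM, 2.07-fold the median of 4.93 RPKM over the 13903 coding genes with at least 10 reads. In listed-transcript RPKM it was 17.1 against 7.49, or 2.29-fold. In RNA of a whole culture, the share of cells in S phase and the amount of RNA per such cell cannot be told apart.

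Of the 41 members, 37 lay above that median of 4.93 RPKM, as did 33.9% of all 20473 coding genes with a length. The 33.9% counts genes with fewer than 10 reads, which the median itself leaves out and of which the members have none. The 4 members below it were Gins3, Orc5, Cdt1 and Cdc6. In listed-transcript RPKM 35 members lay above the corresponding median, and the 6 below it were Gins3, Cdt1, Cdc6, Gins2, Orc1 and Rfc2. The share over all coding genes is not given for this measure. Gins3, Cdt1 and Cdc6 were thus on the low side by both lengths. The roles stood in the order nucleotide supply (median 42.9 RPKM), helicase (21.8), clamp (13.8), polymerase (9.84) and licensing (7.21), and the order was the same in listed-transcript RPKM, with medians of 54.2, 28.5, 18.3, 17.1 and 11.6. Without division by length polymerase (42.8 CPM) stood above clamp (36.6 CPM).

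**Figure D2:**
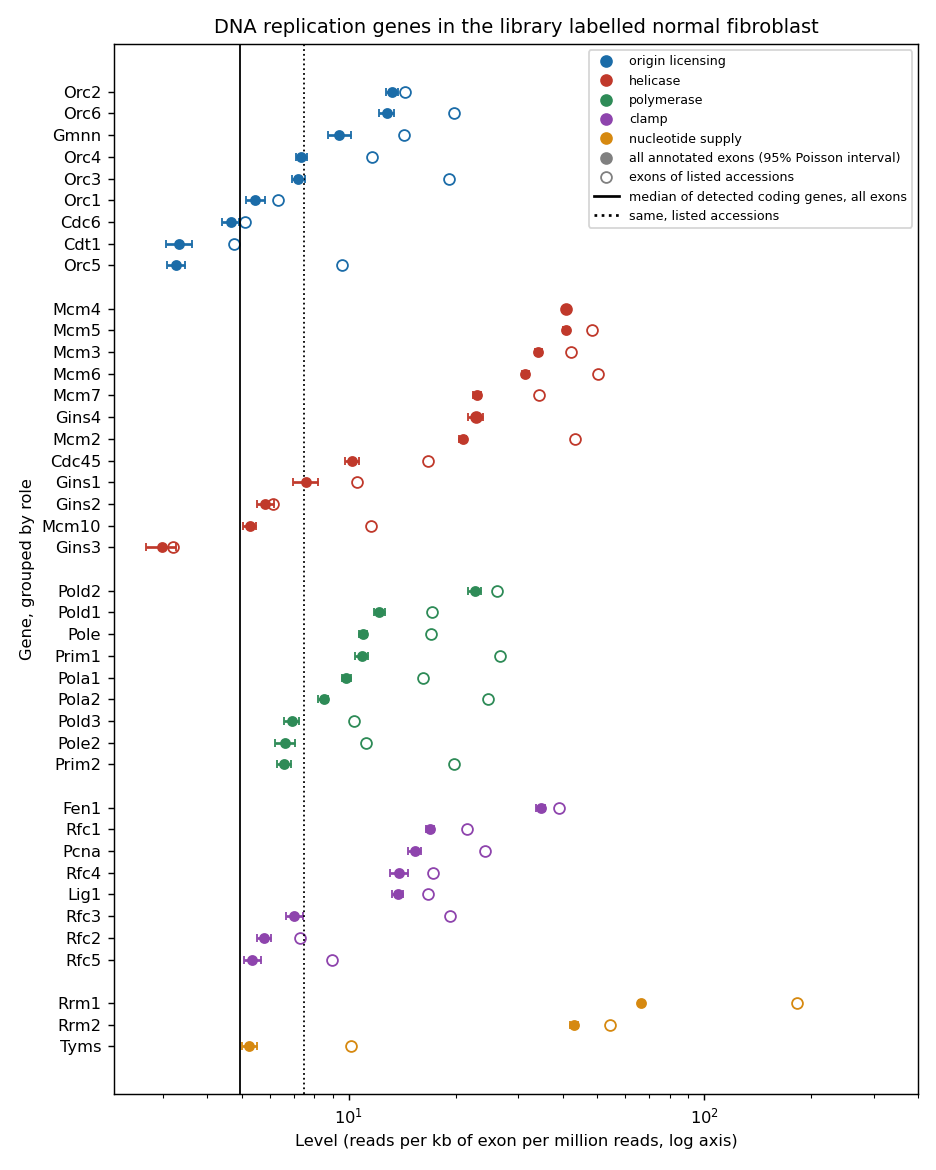
Level of each of the 41 members, grouped by role, on a log axis in reads per 1000 bases per 1000000 reads. Filled points use all annotated exons and carry a 95% Poisson interval, open points use the exons of the listed transcripts, and the lines mark the medians of detected coding genes (4.93 and 7.49). Rrm1 is highest by both lengths and Gins3 lowest.

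Licensing genes were the lowest role. The 6 ORC subunits, which mark origins, had 998 reads (Orc1), 2685 (Orc2), 2305 (Orc3), 2878 (Orc4), 1058 (Orc5) and 1655 (Orc6). Orc1, the ATPase subunit whose supply varies with the cell cycle in many cells, had 5.46 RPKM (5.13 to 5.81) and 6.31 listed-transcript RPKM. Orc2 had 13.3 RPKM (12.8 to 13.8) and 14.4 listed-transcript RPKM, 2.43-fold Orc1 by all exons (2.26 to 2.61) and 2.28-fold by listed transcripts. Orc5 had 3.27 RPKM but 9.58 in the listed-transcript measure, and Orc3 had 7.21 and 19.1, so the places of these subunits turned on the length. Across ORC the highest subunit was 4.06-fold the lowest by all exons (Orc2 and Orc5) and 3.13-fold by listed transcripts (Orc6 and Orc1).

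Of the factors that act with ORC, Cdc6 and Cdt1 lay below the median of detected coding genes and Gmnn above it. Cdc6 (chromosome 11, 98907709 to 98923942), the ATPase that joins ORC to load MCM2-7, had 1278 reads and 4.66 RPKM (4.40 to 4.92). Cdt1 (chromosome 8, 122568015 to 122573130), which brings the MCM2-7 ring to the origin, had 548 reads and 3.32 RPKM (3.05 to 3.61), a level above that of 40.9% of detected coding genes. Gmnn, the gene of geminin, the inhibitor of Cdt1, had 724 reads and 9.41 RPKM (8.74 to 10.1). Transcripts of the inhibitor thus exceeded those of its target 2.83-fold per length by all exons (2.53 to 3.17) and 3.003-fold by listed transcripts (2.68 to 3.36). The ratio of plain reads was 1.32 (1.18 to 1.48).

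The MCM2-7 ring was more evenly expressed than ORC, RFC or GINS. By all exons the genes of polymerase alpha-primase lay closer together, from 6.58 (Prim2) to 10.9 RPKM (Prim1). The ring genes had 7637 reads (Mcm2), 6717 (Mcm3), 7709 (Mcm4), 8563 (Mcm5), 7673 (Mcm6) and 5320 (Mcm7), or 831 CPM in sum. Against this, the 6 ORC genes summed to 221 CPM and the 4 GINS genes to 74.1 CPM. Mcm4 (chromosome 16, 15623897 to 15637400) had 40.9 RPKM (40.0 to 41.8) and Mcm5 (chromosome 8, 75109468 to 75128439) 40.9 RPKM (40.0 to 41.7), intervals that overlap. Mcm3 had 34.1, Mcm6 31.3, Mcm7 22.9 and Mcm2 20.9 RPKM. The highest was 1.96-fold the lowest by all exons (1.90 to 2.02) and 1.47-fold by listed transcripts (1.42 to 1.52), where the 6 genes lay between 34.2 (Mcm7) and 50.2 (Mcm6). Mcm2, lowest by all exons, was at 43.2 in that measure. No subunit was therefore low by both lengths except Mcm7, second from the bottom in the first and at the bottom in the second.

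Of the partners that turn the ring into a working helicase, Cdc45 and 3 of the 4 GINS genes lay below every ring subunit by both lengths, while Gins4 was level with Mcm7 by all exons and above Mcm2. Cdc45 had 1883 reads and 10.2 RPKM (9.77 to 10.7), so that Mcm5 stood 3.99-fold above it by all exons (3.80 to 4.20) and 2.88-fold by listed transcripts. Mcm10, a firing factor that is no part of the ring despite its name, had 2124 reads and 5.26 RPKM (11.6 by listed transcripts). Among the GINS genes, Gins4 (chromosome 8, 23226610 to 23237668) had 1611 reads and 22.7 RPKM (21.7 to 23.9), Gins1 603 reads and 7.58 RPKM, and Gins2 1252 reads and 5.82 RPKM. Gins3 (chromosome 8, 95633559 to 95645059) had 423 reads and 2.97 RPKM (2.70 to 3.27), the lowest level of the 41. Gins4 was 7.65-fold Gins3 by all exons (6.87 to 8.53) and 7.11-fold by listed transcripts (6.39 to 7.93), a wider gap than within MCM2-7, ORC or RFC by either length. The protein products form a complex of equal parts, and transcript levels do not give protein levels. Gins2 is uncertain, since 2758 of its exon bases are shared with Gse1, a gene of the other strand with 3310 reads, and whether the counting used strand is not known from the labels.

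**Figure D3:**
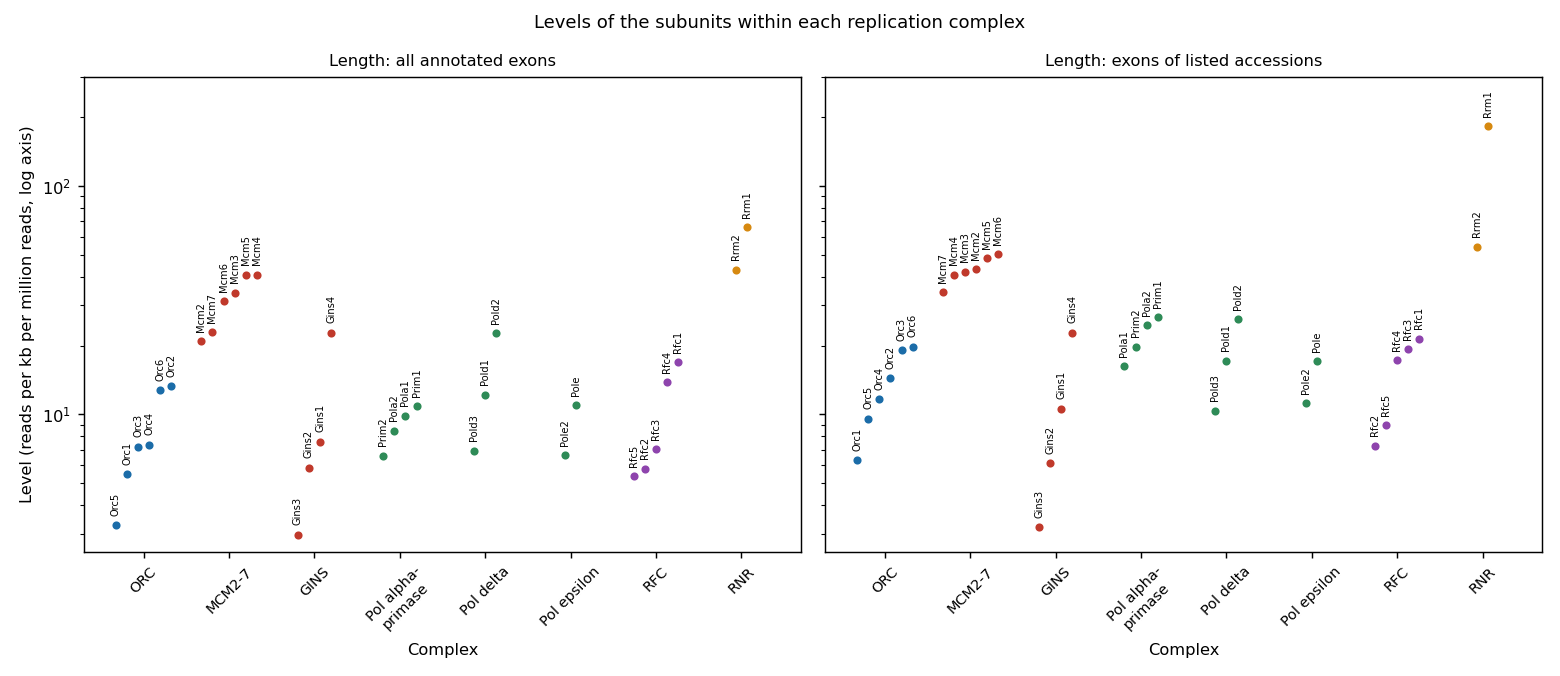
Subunit levels within 8 complexes, in reads per 1000 bases per 1000000 reads on a log axis, with all annotated exons on the left and listed transcripts on the right. Each point is 1 gene, ordered by level within its complex, RNR is ribonucleotide reductase and colours give the role. MCM2-7 spans 1.96-fold on the left and 1.47-fold on the right, and GINS spans 7.65-fold and 7.11-fold.

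The 9 polymerase genes all lay above the median of detected coding genes by both lengths. They ran from 6.58 to 22.6 RPKM by all exons and from 10.4 to 26.6 by listed transcripts. Pola1 and Pola2, the catalytic and B subunits of polymerase alpha, had 4552 and 3696 reads, and the primase genes Prim1 and Prim2 had 2208 and 2051. By all exons Pola1 had 9.84 RPKM and Pola2 8.49, a ratio of 1.16 (1.11 to 1.21). By listed transcripts the order turned, with a ratio of 0.660 (0.632 to 0.690), so neither can be called higher. Prim1 had 10.9 RPKM and Prim2 6.58, with a ratio of 1.65 by all exons and 1.34 by listed transcripts, but 0.842 with the longest annotated transcript.

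For the leading and lagging strand enzymes, catalytic subunits were at like levels. Pole, which copies most of the leading strand, had 6421 reads and 10.96 RPKM (10.7 to 11.2), and Pold1, which copies the lagging strand, had 3108 reads and 12.2 RPKM (11.8 to 12.6). Their ratio was 0.900 by all exons (0.862 to 0.939) and 0.996 by listed transcripts (0.954 to 1.04). The accessory subunit Pold2 had 2249 reads and 22.6 RPKM, 1.85-fold Pold1 by all exons and 1.52-fold by listed transcripts, while Pold3 had 1670 reads and 6.91 RPKM. Pole2, the second subunit of polymerase epsilon, had 1001 reads and 6.62 RPKM (6.22 to 7.04), and Pole was 1.66-fold above it (1.55 to 1.77).

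Among the clamp genes, Fen1 was highest. Fen1 (chromosome 19, 10199132 to 10204393), the flap endonuclease that trims Okazaki fragments, had 4410 reads and 34.7 RPKM (33.7 to 35.7), near the MCM genes. Lig1, the ligase that then seals them, had 3079 reads and 13.7 RPKM (13.3 to 14.2), so Fen1 was 2.52-fold higher by all exons (2.41 to 2.64) and 2.34-fold by listed transcripts. Pcna (chromosome 2, 132249286 to 132253180), the sliding clamp itself and a common marker of proliferation, had 1929 reads and 15.3 RPKM (14.6 to 16.0; 24.2 by listed transcripts). Fen1 exceeded Pcna 2.27-fold by all exons (2.15 to 2.39) and 1.61-fold by listed transcripts.

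Replication factor C, the loader that opens the clamp, was led by its large subunit. Rfc1 had 5347 reads and 16.9 RPKM (16.5 to 17.4; 21.4 by listed transcripts). The small subunits had 1909 reads (Rfc2), 1332 (Rfc3), 1114 (Rfc4) and 1313 (Rfc5), which gave 5.77, 7.03, 13.8 and 5.36 RPKM. By listed transcripts they had 7.28, 19.3, 17.3 and 8.95, so Rfc1 was the highest of the 5 by both lengths and Rfc2 and Rfc5 were the lowest pair. Highest and lowest were 3.16-fold apart by all exons and 2.94-fold by listed transcripts.

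Nucleotide supply held the most abundant members per length, and Tyms, far below them but above the median of detected coding genes. Rrm1 (chromosome 7, 102441695 to 102469771), the large subunit of ribonucleotide reductase, which makes deoxyribonucleotides, had 38258 reads or 729 CPM (722 to 736) and ranked 134 among all genes of the table by CPM. It had 66.2 RPKM (65.5 to 66.8), above 97.0% of detected coding genes, and 182 listed-transcript RPKM, above 98.8%. Rrm2 (chromosome 12, 24708254 to 24714146), the small subunit, made mainly in S phase, had 6244 reads and 42.9 RPKM (41.9 to 44.0). The large subunit exceeded the small one 1.54-fold by all exons (1.501 to 1.584) and 3.36-fold by listed transcripts (3.27 to 3.45). Rrm2 itself was close to Mcm4, at 1.05-fold (1.01 to 1.08) by all exons and 1.33-fold by listed transcripts.

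Tyms (chromosome 5, 30038546 to 30073645), which makes thymidylate, had 1680 reads and 5.26 RPKM (5.01 to 5.51), 10.1 by listed transcripts. Rrm1 was 12.6-fold higher by all exons and 18.0-fold by listed transcripts. The row of the processed pseudogene Tyms-ps held 124 reads. An annotated pseudogene with at least 90% identity over at least 400 bases was found for 8 members, Tyms, Cdc6, Gmnn, Mcm4, Mcm7, Pcna, Rfc5 and Rrm2, and the levels of these are uncertain if reads were shared. Exon bases shared with a coding gene on the other strand were found for 11 members, from 64 bases of Mcm7 with Cops6 to the 2758 of Gins2. The share over all coding genes is not given for either count. Some partners had more reads than the member: Vps35 (18120) with Orc6, Wsb2 (10747) with Rfc5, Eif4a2 (8325) with Rfc4 and Ufd1 (2720) with Cdc45. Orc2 shares 1150 bases with Nif3l1 (1802 reads). The places of these members within ORC and RFC, and the level of Cdc45 with its ratio to Mcm5, are uncertain if strand was not used. Mcm7 also hosts the microRNA genes Mir25, Mir93 and Mir106b, whose rows held 99, 118 and 92 reads.

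Related replication genes outside the 41 gave a mixed picture. All 85 of a further set in 8 lists had at least 10 reads, as did 67.6% of protein-coding genes. Above 4.93 RPKM, the median of coding genes with at least 10 reads, lay 67 of the 85, against 33.9% of all coding genes with a length. The median of the 85 was 7.39 RPKM. RPA, the trimer that coats single-stranded DNA, was uneven, with Rpa1 at 31.4 RPKM, Rpa3 at 7.21 and Rpa2 at 6.18. The small polymerase subunit genes Pold4, Pole4 and Pole3 had 23.3, 6.78 and 3.94 RPKM. In the list of loading and firing factors, with a median of 5.55, Mcmbp (26.3), an MCM-binding protein gene, and Topbp1 (21.7), a firing and checkpoint scaffold, led. Recql4 (2.73) and Mcm9 (1.06) were last, so that Mcm9, a relative of the ring subunits that is not part of MCM2-7, lay far below Mcm2 to Mcm7.

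Fork and checkpoint factors had a median of 5.45 RPKM over 18 genes. Top2a, a topoisomerase gene that peaks late in the cell cycle, had 64.7 RPKM and Chtf8, of an alternative clamp loader, 51.9, whereas Dna2, a flap nuclease gene, had 1.77 and Dscc1 0.886. Chtf8 and Dscc1 encode partners in that same loader. Genes of chromatin assembly and DNA methylation at forks were higher, with a median of 13.9 RPKM. The histone chaperone FACT genes Ssrp1 (86.5) and Supt16h (37.2) led, and Tonsl (3.51) and Chaf1a (2.86) were last.

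The further nucleotide enzymes had a median of 12.3 RPKM. Ctps, which makes CTP, had 62.5 and Nme2 59.4, whereas the mitochondrial thymidine kinase gene Tk2 had 4.73 and Rrm2b, the alternative small subunit of ribonucleotide reductase, 1.51 (723 reads). Among E2F and S phase entry genes, with a median of 9.34, Ccna2 (27.8), the cyclin A2 gene, and E2f4 (27.6), a mainly repressive E2F, led, and Cdc25a (4.06) and E2f2 (1.26) were last. Genes of the ligases that turn over licensing factors had a median of 26.2 RPKM. The adaptor gene Ddb1 reached 352 RPKM and Skp1a 60.6, while the substrate receptor genes Dtl (5.54), which directs Cdt1 to degradation, and Skp2 (4.40) were last.

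**Figure D4:**
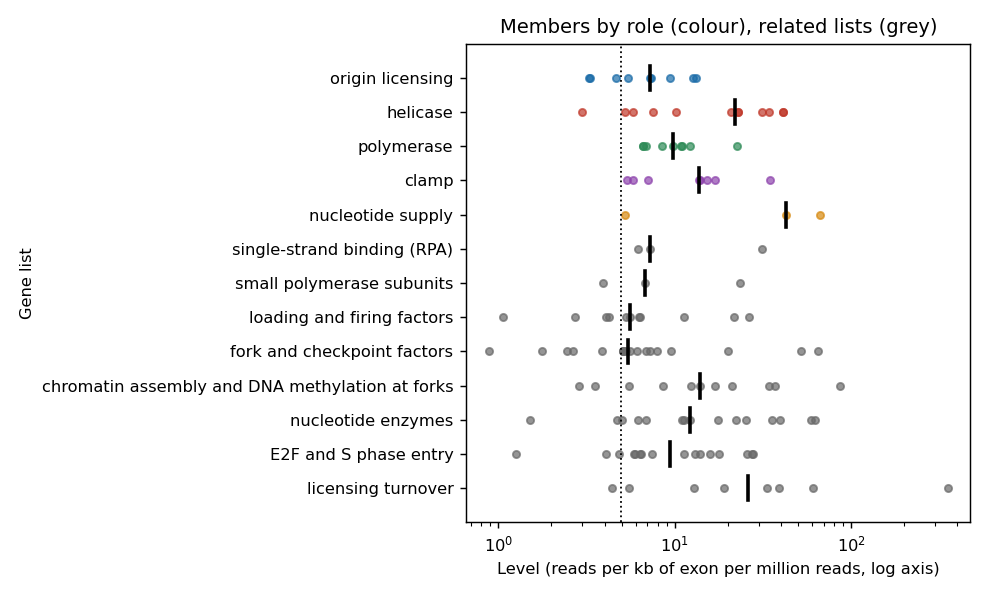
Levels of the 41 members by role (colour) and of 85 further replication genes in 8 lists (grey), in reads per 1000 bases of exon per 1000000 reads on a log axis. Each point is 1 gene, black bars are medians of a list and the dotted line is the median of detected coding genes, 4.93. Nucleotide supply has the highest median of the 5 roles, 42.9, and licensing the lowest, 7.21.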

How the data were processed

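The deposited signal is 1 value per gene row (24214 rows); the submitters' processing notes name DESeq and mm10. Aligner, counter, annotation and use of strand: not given in the sources used here. All 20976 values above 0 were whole multiples of 1.18 within 0.01 of a read, so the deposited signal was taken as reads divided by a size factor of 0.850, and the planned measures for counts were run on these reads. A count test needs replicates and was not run.

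Rows with a copy suffix were summed. Lengths came from GENCODE M21 (GRCm38, the assembly of mm10) and were found for 99.6% of 20559 coding genes (those with an NM accession) and all 41 members; gene coordinates (1-based) are from RefSeq GRCm38.p6. Intervals are exact Poisson for levels and exact Clopper-Pearson on paired counts for ratios, and leave out the error of the lengths. A count of 0 would allow up to 3 reads; no member was near it. Copies were searched with blastn 2.17.0.

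The members, lists and tests were chosen with earlier results of these data known. All members are named, with the 2 highest and 2 lowest genes of each related list. Read recovery was tested on simulated data. The simulated check of the motif search used planted letters that had to be found, so the search itself counts as untested. Alternatives changed the length, the detection limit, the background and the motif. Scripts ran under scipy 1.17.1, numpy 2.4.6, matplotlib 3.10.9, pandas 2.3.3 and Python 3.11.15. One item of the labelled genotype is not reported here.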

Additional observations from a re-analysis of the deposited data

How the results depend on the processing

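No paired analysis was possible because there is a single library, which also left no replicate to omit. All 41 members stayed detected at 1 and at 50 reads, and between 33 and 41 lay above the background median under every length and background tried. Medians relative to the detected coding genes (log2) kept their sign and moved by more than counting error, except for polymerase without length. With the longest transcript, no length and listed transcripts (chosen after seeing the data) in turn, they were 1.28, 0.92 and 1.20 for all members (1.05 by all exons), 0.87, 0.18 and 0.64 for licensing (0.55), 2.07, 1.73 and 1.93 for helicase (2.15), 1.38, 0.77 and 1.29 for clamp (1.48) and 3.02, 2.47 and 2.86 for nucleotide supply (3.12). For polymerase they were 1.28, 0.999 and 1.20 (0.996 by all exons), so that without length polymerase stood above clamp. Against all coding genes, silent ones included, they were 3.11, 2.60, 4.20, 3.54, 5.18 and 3.05 in the same order. Highest-to-lowest ratios were 1.44, 1.61 and 1.47 within MCM2-7, 3.99, 2.88 and 3.13 within ORC, 3.22, 4.80 and 2.94 within RFC and 7.11, 3.81 and 7.11 within GINS. The 2 8-mers ending in GCGC were in 10 members, 1.29% of coding genes and 1.73% of those with at least 10 reads. The last 6 letters alone were in 28 members (84.8%), 50.1% of coding genes and 64.9% of those with at least 10 reads. Depth set a counting error of at most 9.65% on a member's level (Gins3).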
